A study of Arabidopsis thaliana with 4 samples.

Results

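Plants make chlorophyll and haem through one branched route, tetrapyrrole synthesis. This account follows 6 of its genes on arrays that set the hy5 mutant against wild type in Arabidopsis thaliana. The genes are GSA1 (AT5G63570), HEMB1 (AT1G69740), HEME2 (AT2G40490), hemf2 (AT4G03205), CHLM (AT4G25080) and PORB (AT4G27440). They were found by locus code among 1801 genes named from the platform annotation, and each was read by 1 probe. Probes paired with several genes, and most genes whose accession serves 3 or more probes, are not among the 1801. The group was selected on log ratios of these same arrays as well as on function, since hemf2 and PORB had drawn notice for their ratios. All ratios of the 6 genes are therefore a description, and no test is drawn from them.

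The mutant and the wild type had both been grown for 4 days under white light that was never switched off. The labels name no hy5 allele, no wild-type strain and no tissue. The 4 arrays each compared both genotypes directly by the fluorescent dyes Cy3 and Cy5. The mutant carried Cy3 on 2 arrays (replicates 1 and 2) and Cy5 on the other 2 (replicates 3 and 4). The design text calls them biological replicates. A ratio carries no level, so neither the tissue nor the abundance of a transcript could be checked, and HY5 itself was not analysed here. In bulk RNA, fewer cells of a type and less RNA per cell cannot be told apart.

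The route begins in the plastid with glutamate bound to its tRNA, which is turned into 5-aminolevulinic acid. That compound is built up through porphobilinogen, uroporphyrinogen and coproporphyrinogen to protoporphyrin, where the route splits into a magnesium branch to chlorophyll and an iron branch to haem and bilins. HY5 is a bZIP transcription factor that acts downstream of the photoreceptors, binds promoters with an ACGT core and promotes greening in Arabidopsis seedlings, and genes of chlorophyll synthesis are among those it is known to bind.

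Of 46 tetrapyrrole genes listed by locus, 6 were named on the array and 40 were not analysed here. The step to 5-aminolevulinic acid had 1 of 6 genes (GSA1), the common steps to protoporphyrin had 3 of 10 (HEMB1, HEME2 and hemf2), and the chlorophyll branch had 2 of 14 (CHLM and PORB). Of the 7 genes of the iron branch 0 were named, likewise 0 of 1 for the sirohaem branch and 0 of 8 for the chlorophyll cycle and breakdown. The haem side of the route is thus represented by the steps it shares with chlorophyll. Of 7 regulators including HY5, listed apart from the 46, 0 were named.

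What the table does not state is the direction of its log2 ratios. If all columns were brought to 1 direction before deposit, a genotype difference keeps 1 sign on all 4 arrays, and the values as deposited apply. If the columns instead hold Cy5 over Cy3 throughout, a genotype difference changes sign between the dye orientations, and replicates 1 and 2 must be multiplied by -1. Both forms are given, the second called turned. When turned, a positive value means higher in the mutant if the columns hold Cy5 over Cy3 and higher in wild type if they hold Cy3 over Cy5. For this reason the text gives signs of ratios and assigns none of them to a genotype.

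The 6 genes did not share a pattern. PORB stood at about equal distance from 0 on both dye orientations but on opposite sides, and hemf2 stood far below 0 on all 4 arrays. The other 4 had means between -0.35 and -0.044 as deposited, with single arrays on both sides of 0 for each. Of these, GSA1, with 3 values, also changed side with the dyes, from -0.19 (mutant in Cy3) to 0.26 (mutant in Cy5, 1 array). By the mean as deposited, 1 gene was positive and 5 were negative, with a median of -0.21. The median was -0.0024 over the 16577 features with a value on every array. Features are genes, with their probes averaged, and single probes paired with no gene or with several. Turned, 3 of the 6 genes were positive and 3 negative, with a median of 0.11 against -0.021 over the same features. The plot of every ratio by gene shows both forms.

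**Figure D1:**
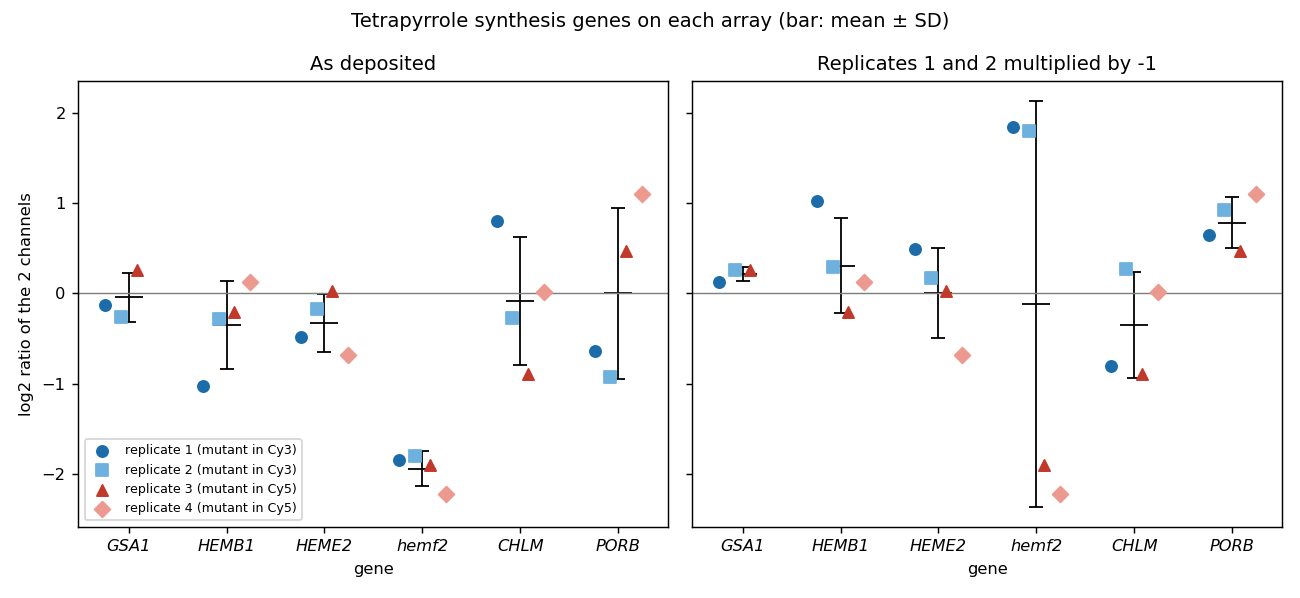
Log2 ratios of the 6 tetrapyrrole genes (x axis) on each array, as deposited on the left and with replicates 1 and 2 multiplied by -1 on the right. Points are arrays and black bars the mean ± SD. hemf2 lies between -2.22 and -1.80 on all arrays as deposited, and PORB lies between 0.47 and 1.10 on all arrays when turned.

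The earliest of the 6 genes in the order of the route, GSA1, encodes a glutamate-1-semialdehyde aminotransferase, which makes 5-aminolevulinic acid. GSA1 had log2 ratios of -0.13, -0.26 and 0.26 on replicates 1, 2 and 3 as deposited, and no value on replicate 4, which lacked 34.9% of all probes. Both arrays with the mutant in Cy3 were below 0, and the lone array with the mutant in Cy5 was above it. The mean was -0.044 ± 0.27 as deposited and 0.22 ± 0.076 turned (SD, n = 3). Turned, all 3 values were positive and lay within 0.13 of each other, and the mean corresponds to a 1.16-fold ratio. That was the smallest turned range among the 6 genes, but it covers 3 values where the others cover 4.

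HEMB1 is a 5-aminolevulinic acid dehydratase, the enzyme that joins molecules of that acid into porphobilinogen. HEMB1 had log2 ratios of -1.02, -0.29, -0.21 and 0.12 on replicates 1 to 4 as deposited. Replicate 1 was the lowest by a wide margin and replicate 4 alone was above 0. The mean was -0.35 ± 0.48 as deposited and 0.31 ± 0.52 turned (SD, n = 4), so that in both forms the mean was smaller than the SD. Without replicate 1 the means were -0.12 and 0.067. The HEMB1 ratio on replicate 1 was a 2.03-fold difference, against 1.09-fold to 1.22-fold on the other arrays.

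HEME2 is a uroporphyrinogen decarboxylase, which forms coproporphyrinogen. HEME2 had log2 ratios of -0.49, -0.17, 0.028 and -0.69 on replicates 1 to 4 as deposited. Replicate 3 was close to 0 and the other arrays were below it. The mean was -0.33 ± 0.32 as deposited and -0.00028 ± 0.50 turned (SD, n = 4). The dye orientations gave nearly the same mean, -0.33 with the mutant in Cy3 and -0.33 with the mutant in Cy5, a 1.26-fold ratio each, although the values within an orientation were 0.31 and 0.72 apart.

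The next step, the oxidation of coproporphyrinogen, is represented by hemf2, annotated as a coproporphyrinogen oxidase gene beside the better known HEMF1 (LIN2), which was not analysed here. hemf2 had log2 ratios of -1.84, -1.80, -1.90 and -2.22 on replicates 1 to 4 as deposited. All 4 values were below every value of the other 5 genes, the lowest of which was -1.02 for HEMB1 on replicate 1. The single-array ratios were 3.58-fold, 3.49-fold, 3.72-fold and 4.65-fold. The mean was -1.94 ± 0.19 as deposited, a 3.83-fold ratio, and -0.12 ± 2.24 turned (SD, n = 4).

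On each array hemf2 was among the most negative features: 2.80%, 4.66%, 3.43% and 3.01% of features had a lower ratio on replicates 1 to 4. Of the 16577 features with 4 values, 134 (0.808%) had a mean at least as large in size as deposited, hemf2 included. hemf2 alone of these had an SD as small as its own, and 14% of all the features had an SD that small. Turned, 11573 features (69.8%) had a mean at least as large in size as that of hemf2, and 98.1% had an SD as small. As deposited, the arrays with the mutant in Cy5 gave a mean of -2.06, slightly beyond the -1.82 of those with Cy3. These values are what singled the gene out. If the columns share 1 direction, they set the genotypes in the same order on all 4 arrays. If they do not, the dye orientations give opposite orders.

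CHLM is the methyltransferase that acts on magnesium protoporphyrin early in the chlorophyll branch. CHLM had log2 ratios of 0.80, -0.27, -0.90 and 0.020 on replicates 1 to 4 as deposited. The values of both dye orientations overlapped, and arrays of the same orientation were 1.07 and 0.91 apart, the widest gaps of that kind among the 6 genes. Over all features the median gap was 0.42 for the arrays with the mutant in Cy3 and 0.43 for those with Cy5. The mean was -0.087 ± 0.70 as deposited and -0.35 ± 0.58 turned (SD, n = 4), and in neither form did the 4 arrays share a sign.

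PORB is one of the light-dependent protochlorophyllide oxidoreductases, which need light to turn protochlorophyllide into chlorophyllide. In Arabidopsis PORB and PORC work in light-grown plants, and PORA is mostly active as dark-grown seedlings first meet light. PORB had log2 ratios of -0.64, -0.92, 0.47 and 1.10 on replicates 1 to 4 as deposited. Both arrays with the mutant in Cy3 were negative and both with the mutant in Cy5 were positive, with no overlap. The mean was 0.00037 ± 0.95 as deposited and 0.78 ± 0.28 turned (SD, n = 4).

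The PORB means of the dye orientations, -0.78 and 0.78 as deposited, matched in size, each a 1.72-fold ratio. Over single arrays the PORB ratios were 1.56-fold, 1.90-fold, 1.38-fold and 2.14-fold. Turned, 515 of the 16577 features had a higher mean than PORB, and 1198 (7.23%) had a mean at least as large in size, PORB included. Also turned, an SD as small as that of PORB was found for 30.2% of the features, and 49 features met both conditions. As deposited, 16554 features (99.9%) had a mean at least as large in size as that of PORB. PORB had drawn notice for these ratios, so its place among the features is a description only. In its place on each array, PORB had 15.3% and 11.1% of features below it on replicates 1 and 2, and 81.5% and 95.2% on replicates 3 and 4. PORA and PORC were not analysed here, and whether the PORB probe also binds their transcripts was not tested.

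**Figure D2:**
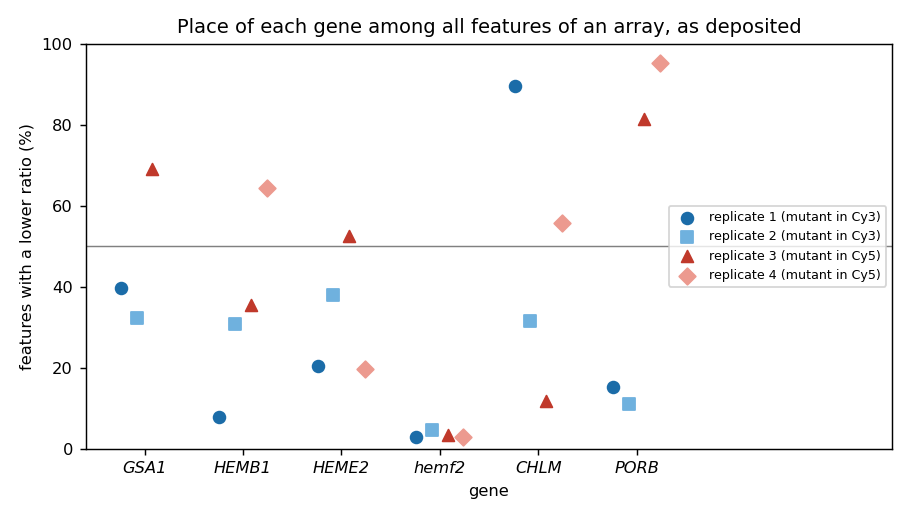
Share of all features on an array with a lower log2 ratio (y axis, %) than each tetrapyrrole gene (x axis), as deposited, with 1 point per array. hemf2 lies between 2.80% and 4.66% on every array, whereas PORB lies at 11.1% and 15.3% with the mutant in Cy3 and at 81.5% and 95.2% with the mutant in Cy5.

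Ordered by the mean as deposited, the genes ran from PORB (0.00037) through GSA1, CHLM, HEME2 and HEMB1 (-0.35) to hemf2 (-1.94). From PORB to HEMB1, neighbours in that order differed by less than their own SDs, and the step to hemf2 was the only one without overlap of single values. Turned, the order was PORB (0.78), HEMB1, GSA1, HEME2, hemf2 and CHLM (-0.35). Turned, the ranges of every pair of neighbours overlapped, those of PORB (0.47 to 1.10) and HEMB1 (-0.21 to 1.02) included. The turned range of hemf2 spans those of HEME2 and CHLM, but the single values of hemf2 all lay outside both. Among the 5 genes with a value on all 4 arrays (GSA1 has 3), by Euclidean distance over the arrays, which is the same in both forms, HEMB1 and HEME2 were the closest pair (1.01) and hemf2 and PORB the farthest apart (4.33).

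The counts of sign patterns were read beside all features. Of the 5 genes with 4 values, hemf2 alone kept 1 sign on all arrays as deposited, against 19.2% of the 16577 features. PORB alone turned its sign with the dyes on all 4 arrays, against 21.6%. Values of the dye orientations did not overlap for 3 of 5 genes as deposited (HEMB1, hemf2 and PORB), against 47.7% of features, and for 3 of 5 when turned (HEMB1, HEME2 and hemf2), against 46.9%. Because the genes were chosen with these ratios known, nothing is read from the counts.

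**Figure D3:**
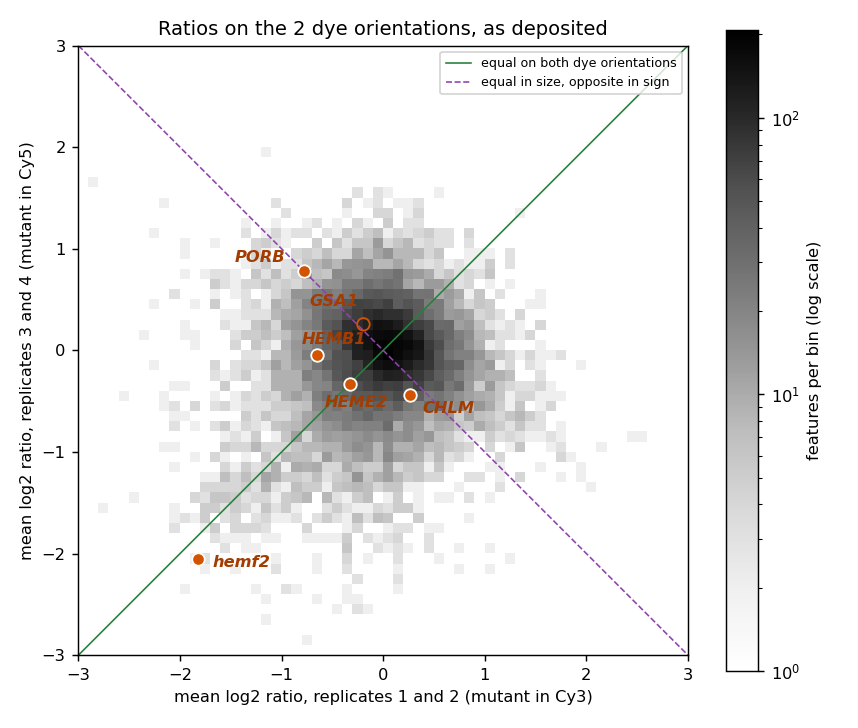
Mean log2 ratio as deposited on replicates 1 and 2 (x axis, mutant in Cy3) and on replicates 3 and 4 (y axis, mutant in Cy5), in grey for 16431 of the 16577 features with 4 values (146 lie outside the axes) and in orange for the tetrapyrrole genes, GSA1 as an open circle since it has 1 array with the mutant in Cy5. PORB sits on the dashed line of equal size and opposite sign, and GSA1 and CHLM lie near it. HEME2 sits on the solid line of equal ratios, and hemf2 lies near that line.

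In limma over all 24153 features with at least 3 values, 0 of the 6 genes passed a Benjamini-Hochberg adjusted p of 0.05 as deposited, where 0% of features did, and 0 of 6 passed turned, where again 0% of features did. At an unadjusted p under 0.05, 1 of 6 genes was counted as deposited (hemf2), against 7.57% of features, and 1 of 6 turned (PORB), against 8.79% of features. The rule that picked the genes had used this contrast, so these counts are given without inference. Each gene rests on 1 spot per array. For the 3 genes that the array carries 17 times, the SD between spots of 1 array ran from 0.126 to 1.19 on the log2 scale with a median of 0.414.

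Among 1194 other named genes with 4 values, the 3 nearest to PORB by Euclidean distance over the arrays were AT4G32340 (0.314), AT2G26500 (0.399) and APS4 (AT5G43780, 0.451), the last an ATP sulfurylase gene. AT4G32340 had log2 ratios of -0.55, -0.95, 0.58 and 0.82 on replicates 1 to 4 as deposited. AT2G26500 had -0.88, -0.71, 0.26 and 0.98, and APS4 had -0.59, -0.89, 0.53 and 0.66, on the same arrays. Their likeness to PORB in sign follows from how they were picked. Their turned means were 0.73 ± 0.19, 0.71 ± 0.32 and 0.67 ± 0.16 (SD, n = 4 each).

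None of the 1194 named genes lay so close to hemf2. Few features lie that far from 0: 134 of 16577 had a mean as deposited at least as large in size, hemf2 included. The 3 named genes nearest to hemf2 were JRG21 (AT3G55970, distance 1.12), the jacalin-related lectin gene JAL33 (AT3G16450, 1.14) and AT4G28570 (1.25). JRG21 had log2 ratios of -0.93, -1.70, -1.86 and -1.58 on replicates 1 to 4 as deposited. JAL33 had -1.04, -2.29, -2.12 and -1.61, and AT4G28570 had -0.78, -1.82, -2.003 and -1.55. Being negative on every array follows from the choice by distance. All 3 were least negative on replicate 1, where hemf2 was at -1.84.

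**Figure D4:**
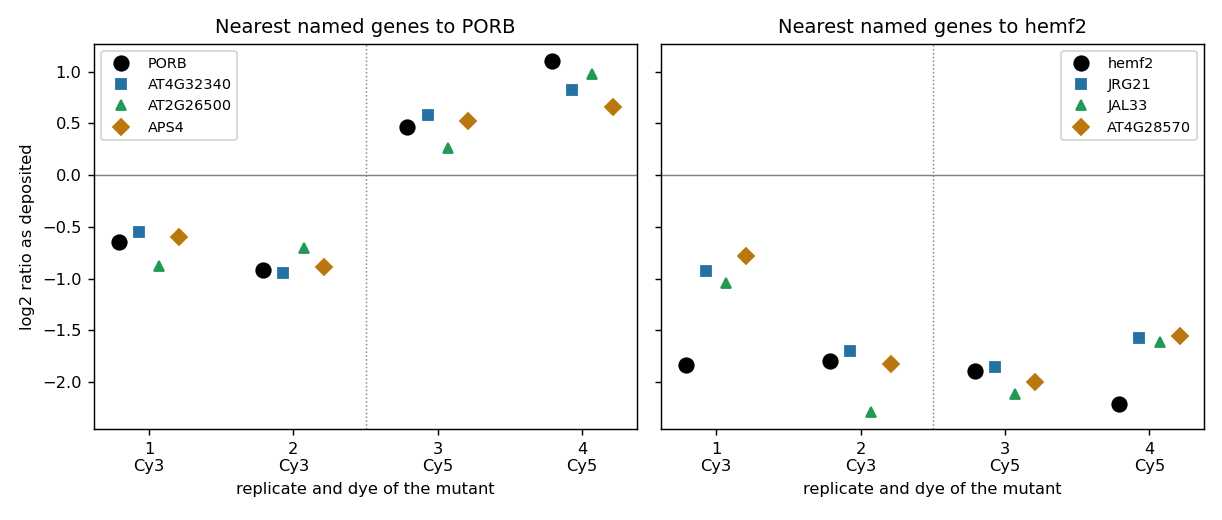
Log2 ratios as deposited (y axis) on replicates 1 to 4 (x axis, with the dye of the mutant) for PORB and its 3 nearest named genes on the left and for hemf2 and its 3 nearest on the right. The genes were picked for closeness to PORB or hemf2 over these values. Those near hemf2 lie above it on replicates 1 and 4.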

How the data were processed

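Total RNA of the hy5 mutant and of wild type was hybridised to 4 two-colour arrays, which form 1 group. The values are log2 ratios deposited by the authors, 1 per probe and array. Limma was used, per the submitters' processing notes. Its version and role, the background correction, normalization, spot filter, ratio direction and log base are not stated in those notes or the file, and so not given in the sources used here. Base 2 was assumed. Values were present for 25007, 26739, 25057 and 18004 of 27648 probes on replicates 1 to 4. With no intensities used, the number of arrays limits the precision.

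Of the probes, 2032 were paired with 1 gene, 644 with several and 24972 with none. Probes of a gene were averaged. Genes whose accession serves 3 or more probes were left unnamed (26 genes, 136 probes), except the 3 spotted 17 times. Symbols follow the TAIR10.1 gene table. Features with at least 3 values were fitted in R 4.3.3 with limma 3.58.1, as a two-sided moderated test of the mean ratio against 0 with Benjamini-Hochberg adjustment, and the fit was tested on simulated data. Means, SDs and distances were computed in Python 3.11.15. Named were the 6 genes, every listed gene on the array, and the 3 genes nearest to PORB and to hemf2. The genes and lists were chosen with earlier results of these data known. Alternatives were each array left out, medians, recentred and rescaled columns, single dye orientations, complete features, no variance moderation, a dye term and single probes. Planned comparisons of proteins and promoters were not run.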

Additional observations from a re-analysis of the deposited data

How the results depend on the processing

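No paired analysis was possible because all arrays form 1 group and each ratio already pairs mutant with wild type. Under every alternative run for features, the adjusted threshold was passed by 0 features in both forms, in limma and without its variance moderation. Without adjustment, 1829 features as deposited and 2122 turned had a p under 0.05. Leaving out each array in turn gave 1098 (without replicate 1) to 1612 as deposited and 1046 (without replicate 2) to 2091 turned, with 1183 without replicate 1 and 1237 without replicate 3. Requiring 3 values of 3 arrays leaves fewer features by construction. The features tested were 16931, 16672, 16916 and 23365 without replicates 1, 2, 3 and 4, against 24153 with all arrays. With a dye term added in limma, 2278 features as deposited and 2578 turned had an unadjusted p under 0.05. GSA1 as deposited moved to 0.26 with the mutant in Cy5 alone. That figure is its single value on replicate 3, since it had none on replicate 4, and why this array differed was not tested. With each array left out, the means as deposited ranged from -0.37 to 0.31 (PORB), -1.98 to -1.85 (hemf2), -0.38 to 0.18 (CHLM), -0.19 to 0.064 (GSA1), -0.45 to -0.21 (HEME2) and -0.51 to -0.12 (HEMB1). Turned, they ranged from 0.68 to 0.89 (PORB), -0.77 to 0.58 (hemf2), -0.56 to -0.17 (CHLM), 0.19 to 0.26 (GSA1), -0.16 to 0.23 (HEME2) and 0.067 to 0.48 (HEMB1). On single dye orientations hemf2 turned was at 1.82 (mutant in Cy3) and -2.06 (mutant in Cy5). With 4 values, a mean without 1 array, a median or a mean of 2 arrays stays within 1 SD by construction, so this says nothing about stability. The single-probe alternative gave no other gene values, since each gene had 1 probe.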

Other observations

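On single arrays as deposited, 5 of the 6 tetrapyrrole genes were below 0 on replicate 1 and 6 of 6 on replicate 2, with 3 of 6 on replicate 3 and 2 of 5 on replicate 4. Their medians were -0.56, -0.28, -0.090 and 0.020 on replicates 1 to 4. Over all features, 50.8%, 49.4%, 49.8% and 46.0% were above 0 on the same arrays. The genes had been chosen with these ratios known, and nothing is read from the counts.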
